A study of Mus musculus with 4 samples.

Results

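Endothelial cells line every vessel of the kidney, from the renal artery through the glomerular capillary tuft to the fenestrated peritubular capillaries that supply the tubules. They are held together by junctional proteins, take their identity from transcription factors of the ETS and SOX families, keep blood fluid through anticoagulant surface proteins, and sense flow, growth factors and vasoactive peptides through a set of receptors that few other cells carry. In ischemia-reperfusion (I/R) injury the microvessels are damaged together with the tubules.

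The genes described here are 36 mouse genes that mark or serve endothelial cells, chosen by name from a table of 54078 genes and other transcribed features. All 36 were found once each. They were measured by RNA-seq in 4 libraries of injured kidney, 2 from WT mice and 2 from tubule-specific Apela knockout (KO) mice, each library made from the pooled RNA of 3 males. Both groups underwent clamping of both kidneys for 30 min and were killed at day 3, and uninjured kidney was not analysed here, so differences refer to genotype under injury.

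According to the study's methods, the KO mice carried a floxed Apela gene and a Cre recombinase driven by the Ksp-cadherin promoter, which drives expression in renal tubular epithelial cells. The WT animals were littermates with the floxed alleles and without Cre. Apela encodes elabela (ELA), a peptide ligand of the receptor APJ. The mice were adult and age-matched, and the labels give the strain as C57BL/6 x 129S4/SvJae where the methods give C57BL/6. The design text names adipose tissue as the source, while the labels give kidney. The kidney markers Umod, Cdh16 and Aqp2 stood at 788 to 1133, 243 to 279 and 159 to 289 FPKM over the 4 pools. FPKM are fragment counts scaled to gene length and library depth, so levels can be compared between genes.

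Apela itself was at 5.27 and 4.57 FPKM in the WT pools and at 0.536 and 0.245 FPKM in the KO pools, which matches the labels. Between 16045724 and 16927742 reads per pool fell on genes. A single endothelial gene received between 43 reads (Tal1, WT replicate 1) and 5351 reads (Plvap, KO replicate 1), so counting error was small for most of them and the spread between pools set the precision. The design text calls the pools biological replicates. With 2 pools a group, an exact permutation test cannot give a two-sided p below 0.333, and every gene is therefore given by its value in each pool.

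Promoter sequences are shown for 3 genes whose values recur in the text. Adgrf5 was one of the 2 members with an unadjusted p under 0.05, Ehd3 had one of the largest positive differences, and Myct1 had the lowest difference of all. The sequences are those of RefSeq on GRCm38.p6 and run, in the direction of the gene, from 250 bases before to 50 bases after an annotated start. Both strands were searched for short words, and capitals mark a match. For ETS factors such as ERG and FLI1 the words were CAGGAAGT and CCGGAAGT. The word searched for SOX factors such as SOX17 and SOX18 was AACAATG. For complexes with TAL1, which bind E-boxes in promoters and enhancers of blood and vessel genes, the word was CAGCTG. For GATA factors, which act together with TAL1 in several of these cell types, it was AGATAA.
Adgrf5 (chr17:43360181-43360480, plus strand): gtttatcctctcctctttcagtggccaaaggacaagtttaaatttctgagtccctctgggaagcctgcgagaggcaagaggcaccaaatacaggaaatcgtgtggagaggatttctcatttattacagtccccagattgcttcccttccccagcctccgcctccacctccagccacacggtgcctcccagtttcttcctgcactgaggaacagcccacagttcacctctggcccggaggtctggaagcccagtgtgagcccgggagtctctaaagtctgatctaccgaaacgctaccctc
Ehd3 (chr17:73804591-73804890, plus strand): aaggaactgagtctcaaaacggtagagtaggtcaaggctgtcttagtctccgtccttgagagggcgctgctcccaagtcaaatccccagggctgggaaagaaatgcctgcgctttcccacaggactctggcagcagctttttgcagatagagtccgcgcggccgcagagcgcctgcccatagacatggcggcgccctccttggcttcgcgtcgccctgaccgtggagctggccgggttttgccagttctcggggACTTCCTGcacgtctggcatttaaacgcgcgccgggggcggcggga
Myct1 (chr10:5593478-5593777, plus strand): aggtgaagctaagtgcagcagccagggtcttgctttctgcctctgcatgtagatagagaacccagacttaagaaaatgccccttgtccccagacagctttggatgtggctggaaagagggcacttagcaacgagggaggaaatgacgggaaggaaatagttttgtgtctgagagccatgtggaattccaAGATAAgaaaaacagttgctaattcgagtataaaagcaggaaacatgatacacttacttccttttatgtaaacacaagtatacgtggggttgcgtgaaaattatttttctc

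A promoter was matched for 19 of the 36 genes, with 25 windows in all. CAGGAAGT was found in 2 of the 25 windows (Egfl7 and Ehd3), against 3.33% of the 32851 promoters of that length. CCGGAAGT was in 1 (Nostrin), against 3.89%. AACAATG was in 2 (Calcrl and Erg), against 3.78%, CAGCTG in 3 (Egfl7, Procr and Robo4), against 16.3%, and AGATAA in 3 (Erg, Myct1 and Tal1), against 11.2%. The Adgrf5 window held none of the 5 words. These are descriptions of letters in a short window and not of binding.

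The study compared injured KO and WT kidneys, reported genes that differed at an adjusted p under 0.05, and went on to study microvascular flow. It reported fewer CD31-stained vessels in injured KO kidneys and, by qPCR, lower Tie1 and lower Aplnr, the gene of APJ. The protein level of APJ was similar. Staining and qPCR are measures unlike the RNA-seq values given here, which come from a separate fit to the deposited FPKM. Of 15414 genes tested, 0 passed an adjusted p of 0.05 (0.0% called, limma on log2(FPKM + 0.5), Benjamini-Hochberg adjustment). Hence none of the endothelial genes did. Nor did Apela, the deleted gene, at a log2 difference of -2.62 (adjusted p = 0.4655, limma). No gene tested had a lower adjusted p, so the lack of calls does not show that genes were unchanged. Before adjustment 974 genes had a p under 0.05, and limma with voom weights on the recovered reads also called 0 after adjustment. Of the 35 endothelial genes above the filter (mean FPKM of 0.5 or more), 24 had a higher mean in the KO pools and 11 a lower one, which is 68.6% higher against 51.4% of all genes tested. The median difference was 0.16 on the log2 scale, against 0.0071 for all genes tested. At an unadjusted p under 0.05, 2 endothelial genes were higher (Plvap and Adgrf5), where 3.29% of all genes were, and 0 were lower, where 3.03% were. In 7 of the 35 genes both KO pools lay above both WT pools, a pattern shown by 19.7% of all genes tested, and in 1 gene both lay below, against 18.1%. The count of genes with separated higher levels thus sat at the background, and that of separated lower levels was below it. FPKM from whole kidney are relative to all RNA in the library, so these values measure neither the number of endothelial cells nor their RNA per cell.

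**Figure D1:**
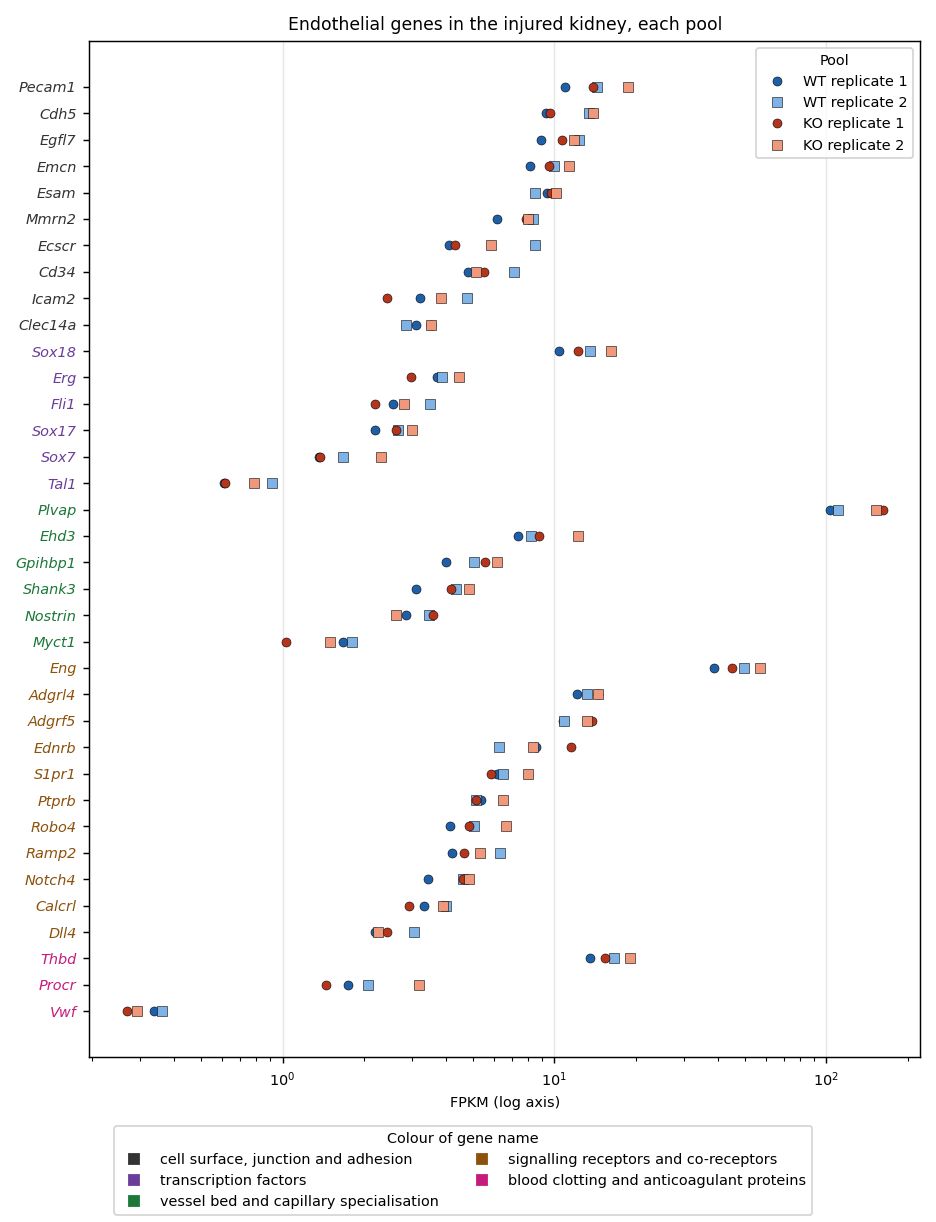
FPKM (log axis) of the 36 endothelial genes in each of the 4 pools, ordered by role and then by mean level. Plvap stands far to the right in every pool, and for most genes the WT and KO points interleave.

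Levels spanned a wide range. Plvap had a mean of 131.5 FPKM over the 4 pools, Eng 47.6 and Thbd 16.1. In all, 9 genes were at 10 FPKM or more, 25 were between 1 and 10, and Tal1 and Vwf were below 1. The median gene was at 5.36 FPKM. Vwf, the von Willebrand factor of large vessels and platelets, was lowest with 0.314 FPKM and was the single member under the filter.

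Among the genes of specialised capillaries, Plvap had the largest log2 difference of the 35 tested members and Myct1 the lowest. Plvap (ENSMUSG00000034845, chromosome 8 from 71497765 to 71511752, minus strand, GRCm38) encodes the protein that forms the diaphragms of fenestrae and caveolae, as found in peritubular capillaries. It was at 103 and 110.1 FPKM in WT mice and at 161 and 151.8 FPKM in KO mice. Both KO pools were high and close together, and both WT pools were low and close together. The KO mean of 156.4 ± 6.49 FPKM (SD, n = 2) was 1.47 times the WT mean of 106.6 ± 5.05 FPKM (SD, n = 2). The log2 difference was 0.55 with a 95% interval of 0.19 to 0.91 (unadjusted p = 0.0114, adjusted p = 0.742, limma). Fits that omitted a single pool gave 0.50 to 0.60, and the unadjusted p rose to 0.0811 without KO replicate 1 and 0.0561 without KO replicate 2.

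Ehd3 (ENSMUSG00000024065), a membrane-trafficking protein that marks glomerular endothelium, was at 7.33 and 8.18 FPKM in WT and at 8.81 and 12.2 FPKM in KO mice. The KO pools lay above the WT pools, but KO replicate 1 was nearer to WT replicate 2 than to the other KO pool. The log2 difference was 0.40 (95% interval -0.093 to 0.89, unadjusted p = 0.0902, limma), 0.17 without KO replicate 2 and 0.62 without KO replicate 1. Gpihbp1, which holds lipoprotein lipase at the capillary wall, was at 3.995 and 5.08 FPKM in WT and at 5.55 and 6.17 FPKM in KO mice, again without overlap (log2 difference 0.34, unadjusted p = 0.0844, limma).

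Shank3, a scaffold protein enriched in endothelium outside the nervous system, overlapped between the groups with 3.11 and 4.35 FPKM in WT and 4.17 and 4.85 FPKM in KO mice. Nostrin, which traffics endothelial nitric oxide synthase, was at 2.83 and 3.45 FPKM in WT and at 3.58 and 2.61 FPKM in KO mice, so that the KO pools lay on either side of the WT pools. Myct1 (ENSMUSG00000046916), a small endothelial membrane protein, went the other way. It was at 1.66 and 1.80 FPKM in WT mice and at 1.03 and 1.49 FPKM in KO mice, and was the one tested endothelial gene with both KO pools below both WT pools (log2 difference -0.35, 95% interval -0.89 to 0.18, unadjusted p = 0.149, limma). Its reads were 76 and 88 in WT and 49 and 69 in KO. Over the 6 genes of this role the median difference was 0.30, with 3 genes separated upwards (19.7% of all genes tested), 1 downwards (18.1%) and 2 overlapping.

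**Figure D2:**
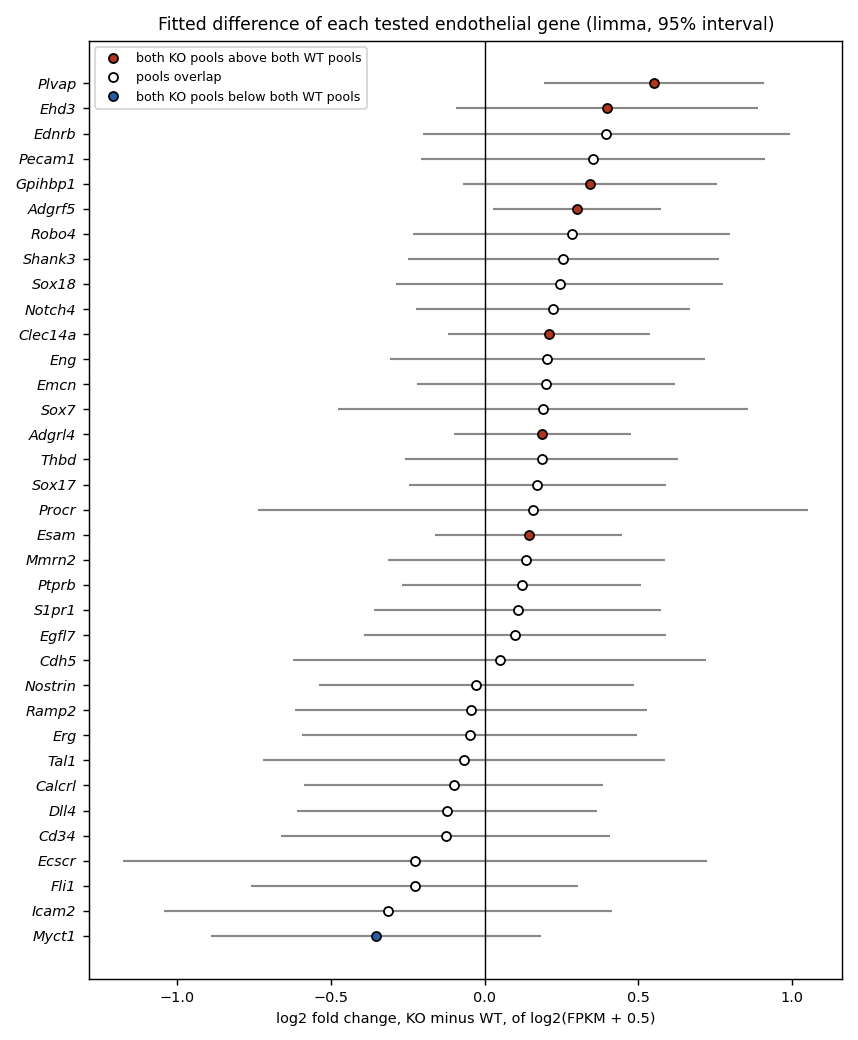
Log2 fold change (KO minus WT) of the 35 tested endothelial genes, with 95% intervals from limma as grey lines and filled points where the pools did not overlap. The intervals of Plvap and Adgrf5 exclude 0 before adjustment over all genes, and the other 33 include it.

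Among the 11 receptors and co-receptors, 2 were separated upwards in KO mice, against 19.7% of all genes tested. These were the adhesion G protein-coupled receptors Adgrf5 and Adgrl4. Adgrf5 (ENSMUSG00000056492, chromosome 17 from 43360451 to 43459557, plus strand) is carried by endothelial and some epithelial cells, among them intercalated cells. It was at 10.8 and 10.9 FPKM in WT and at 13.7 and 13.2 FPKM in KO mice, means of 10.8 ± 0.0684 and 13.5 ± 0.374 (SD, n = 2 each). The log2 difference was 0.30 (95% interval 0.026 to 0.57, unadjusted p = 0.0376, adjusted p = 0.785, limma), and fits that omitted a single pool gave 0.27 to 0.33, with unadjusted p from 0.0949 to 0.151. The unadjusted p was 0.0572 after quantile normalization and 0.0633 without the trend, so its place below 0.05 depended on these settings. Adgrl4, also called ELTD1, was at 12.1 and 13.2 FPKM in WT and at 14.4 and 14.5 FPKM in KO mice (log2 difference 0.19, unadjusted p = 0.151, limma). The KO pools were almost equal and above both WT pools.

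The other 9 receptors and co-receptors overlapped between genotypes. Eng, the endoglin co-receptor for TGF-beta family ligands, was the second most abundant member, at 38.7 and 49.7 FPKM in WT and 45.0 and 56.9 FPKM in KO mice. Robo4, which stabilises the vessel wall, was at 4.14 and 5.04 FPKM in WT and 4.84 and 6.64 FPKM in KO mice. Ednrb, an endothelin receptor present on endothelium and on stromal cells, was at 8.55 and 6.25 FPKM in WT and 11.5 and 8.33 FPKM in KO mice. Ednrb differed from most members in that the first pool of each group was the higher one.

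S1pr1, the sphingosine 1-phosphate receptor that tightens junctions, was at 6.17 and 6.49 FPKM in WT and 5.85 and 8.03 FPKM in KO mice. Ptprb, the phosphatase VE-PTP that restrains TIE2 and VE-cadherin signalling, was at 5.38 and 5.14 FPKM in WT and 5.15 and 6.44 FPKM in KO mice. In both genes KO replicate 2 was high and the other 3 pools lay close together. For the Notch pair of arterial and sprouting endothelium, the receptor Notch4 was at 3.43 and 4.601 FPKM in WT and 4.598 and 4.85 FPKM in KO mice, so that only WT replicate 2 reached a KO level. Its ligand Dll4 was at 2.20 and 3.03 FPKM in WT and 2.42 and 2.25 FPKM in KO mice, with the KO pools between the WT pools.

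The adrenomedullin receptor is formed by Calcrl with its partner Ramp2. Calcrl was at 3.33 and 4.001 FPKM in WT and 2.91 and 3.89 FPKM in KO mice, and Ramp2 at 4.18 and 6.32 FPKM in WT and 4.65 and 5.34 FPKM in KO mice. Neither showed a difference larger than the spread of its pools. Ramp2 shares 1103 of its 3301 exonic bases with Vps25 on the same strand, so reads there could belong to either gene, and its level is uncertain. Of these 11 receptors and co-receptors, 8 had a higher mean in KO and 3 a lower one, with a median difference of 0.19.

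For the genes of junction and surface proteins, which are the usual markers of endothelial content, every 95% interval of the genotype difference included 0. Several intervals were wide, so a difference in either direction is not excluded. Cdh5, the VE-cadherin of endothelial junctions, was at 9.30 and 13.4 FPKM in WT and at 9.64 and 13.9 FPKM in KO mice. The 2 pools of a genotype differed far more than the genotypes, whose means were 11.3 ± 2.88 and 11.8 ± 2.98 FPKM (SD, n = 2 each). The log2 difference was 0.050 with a 95% interval of -0.62 to 0.72, and it was -0.20 without WT replicate 1 and also without KO replicate 2. Pecam1, which encodes CD31 and is also carried by platelets and leukocytes, was at 10.9 and 14.3 FPKM in WT and at 13.8 and 18.7 FPKM in KO mice (log2 difference 0.35, 95% interval -0.21 to 0.91, unadjusted p = 0.162, limma). WT replicate 2 exceeded KO replicate 1, so the groups overlapped. The difference was 0.14 without KO replicate 2 and 0.17 without WT replicate 1.

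Egfl7, a secreted vessel matrix protein, was at 8.90 and 12.4 FPKM in WT and 10.7 and 11.8 FPKM in KO mice. Emcn, the endomucin of capillary and venous endothelium, was at 8.12 and 9.99 FPKM in WT and 9.56 and 11.4 FPKM in KO mice. Mmrn2, a matrix ligand of CLEC14A, was at 6.17 and 8.37 FPKM in WT and 7.87 and 8.03 FPKM in KO mice. All 3 overlapped, and WT replicate 1 was the lowest pool in each.

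Esam and Clec14a were the 2 of the 10 surface genes in which both KO pools lay above both WT pools. That pattern was shown by 19.7% of all genes tested. Esam, a junctional adhesion molecule, was at 9.42 and 8.45 FPKM in WT and 9.72 and 10.1 FPKM in KO mice, and Clec14a, a C-type lectin of vessels, at 3.10 and 2.85 FPKM in WT and 3.505 and 3.53 FPKM in KO mice. The log2 differences were 0.14 and 0.21, with 95% intervals of -0.16 to 0.45 and -0.12 to 0.54.

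Lower means in KO mice were found for Icam2, Ecscr and Cd34. Icam2, an adhesion ligand for leukocytes, was at 3.20 and 4.76 FPKM in WT and 2.42 and 3.82 FPKM in KO mice (log2 difference -0.31, 95% interval -1.04 to 0.41). Ecscr, which regulates endothelial migration, was at 4.11 and 8.51 FPKM in WT and 4.31 and 5.83 FPKM in KO mice, a difference carried by WT replicate 2, without which it was 0.26 in the other direction. Cd34, a sialomucin of capillary endothelium and stromal and progenitor cells, was at 4.82 and 7.11 FPKM in WT and 5.50 and 5.16 FPKM in KO mice, and its log2 difference of -0.13 became 0.13 without WT replicate 2. Leukocyte markers were highest in the same pool, with a summed level of 192 FPKM in WT replicate 2 against 84.5 to 106.1 in the other pools, and their part in these 3 genes was not tested. Over the 10 surface genes, 7 had a higher and 3 a lower mean in KO mice, and the median difference of 0.12 became -0.099 without WT replicate 1.

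The transcription factors were at lower levels and none was separated by genotype. Sox18, the most abundant of the SOXF factors that specify arterial and lymphatic endothelium, was at 10.4 and 13.5 FPKM in WT and 12.3 and 16.2 FPKM in KO mice. Its relative Sox17 was at 2.19 and 2.67 FPKM in WT and 2.61 and 2.98 FPKM in KO mice, and Sox7 at 1.36 and 1.67 FPKM in WT and 1.38 and 2.30 FPKM in KO mice. All 3 were lowest in WT replicate 1 and highest in KO replicate 2.

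The ETS factors Erg and Fli1 and the helix-loop-helix factor Tal1 had lower means in KO mice. Erg, which maintains endothelial identity, was at 3.70 and 3.87 FPKM in WT and 2.97 and 4.46 FPKM in KO mice. Fli1, which is also expressed in blood cells, was at 2.55 and 3.48 FPKM in WT and 2.20 and 2.79 FPKM in KO mice (log2 difference -0.23, 95% interval -0.76 to 0.31). Tal1, a factor of hemangioblasts, erythroid cells and endothelium, was at 0.611 and 0.916 FPKM in WT and 0.614 and 0.788 FPKM in KO mice. The 6 factors split into 3 with a higher and 3 with a lower mean, and their median difference of 0.062 became -0.13 without KO replicate 2.

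The proteins that govern clotting had few reads apart from Thbd. Thrombomodulin, encoded by Thbd, activates protein C together with thrombin, and its level was 13.6 and 16.5 FPKM in WT and 15.3 and 19.0 FPKM in KO mice, with overlap. Procr, the endothelial protein C receptor, was at 1.75 and 2.06 FPKM in WT and 1.44 and 3.18 FPKM in KO mice. The KO pools enclosed the WT pools, and the 95% interval of its log2 difference, -0.74 to 1.05, was among the widest of the list. Vwf was at 0.337 and 0.362 FPKM in WT and at 0.268 and 0.291 FPKM in KO mice, both KO pools below both WT pools. Its reads were 87 and 100 in WT and 72 and 76 in KO, and the exact Poisson 95% intervals, which cover counting error only, ran from 69.7 to 107.3 and from 81.4 to 121.6 in WT and from 56.3 to 90.7 and from 59.9 to 95.1 in KO. The intervals overlapped, and the gene was not tested.

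A pattern across pools was common to most of the 36 genes and did not follow genotype. In 32 of them WT replicate 2 was higher than WT replicate 1, and in 30 KO replicate 2 was higher than KO replicate 1. Both held for 27 genes (24.4% of all genes tested). KO replicate 2 was the highest pool for 20 members, WT replicate 2 for 12, KO replicate 1 for 4 and WT replicate 1 for 0, whereas WT replicate 1 was the lowest for 23. Over the tested members, the second pool exceeded the first by a median log2 difference of 0.27 in WT and 0.24 in KO mice, against -0.0045 and 0.0043 for all genes tested. Both are larger than the median difference of 0.16 between the genotypes.

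**Figure D3:**
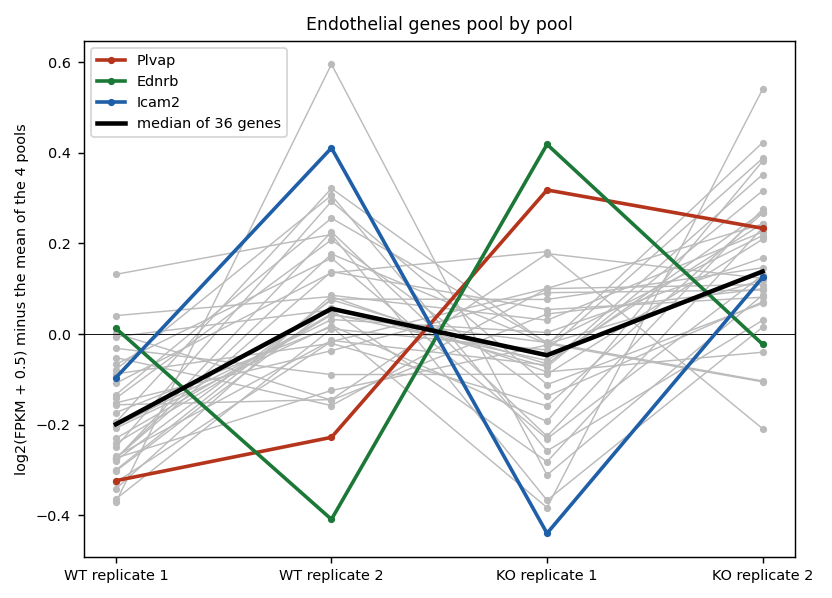
Log2(FPKM + 0.5) of each of the 36 endothelial genes minus its mean over the 4 pools (grey lines), with the median in black and Plvap, Ednrb and Icam2 in colour. The median line is lowest in WT replicate 1 and rises in the second pool of each genotype, while Plvap separates the genotypes.

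Leaving out WT replicate 1 or KO replicate 2, the pools at the ends of that order, brought the median log2 difference over the tested members to 0.048 and 0.036. It was 0.26 without WT replicate 2 and 0.25 without KO replicate 1. Single genes changed the sign of their difference with a pool left out in 15 of 35 cases, whereas for 20 genes, Plvap, Adgrf5, Ehd3, Gpihbp1, Pecam1 and Myct1 among them, the sign held in all 4. The tested members without the 8 that blood or megakaryocyte cells also make gave a median of 0.19 over 27 genes.

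To describe the makeup of the endothelial signal apart from its amount, each gene was set against the mean log2 level of 9 general endothelial genes of the same pool, namely Pecam1, Cdh5, Egfl7, Esam, Clec14a, Ecscr, Myct1, Robo4 and Erg. A gene among the 9 was set against the other 8. That mean stood at 2.53 and 2.81 in WT and at 2.57 and 2.88 in KO mice, a genotype difference of 0.057. On this relative scale the KO pools were separated upwards from the WT pools in 11 members, against 5.66% of all genes tested, and downwards in 5, against 14.7%. The general endothelial level differed within each genotype and was subtracted from every gene, so genes of other cells inherit that spread and these shares are no like-for-like background.

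Plvap was again first. Its log2 level relative to the 9 genes was 4.16 and 3.98 in WT and 4.77 and 4.37 in KO mice, a difference of 0.49. Next among the 11 separated genes were Ehd3 at 0.34, Pecam1 at 0.33, Gpihbp1 at 0.29, Robo4 at 0.25, Shank3 at 0.20 and Sox18 at 0.19, followed by Eng, Emcn, Thbd and Sox17 at 0.15, 0.14, 0.13 and 0.11. Myct1 lay lowest, at -0.46, with Icam2 at -0.37, Fli1 at -0.28, Calcrl at -0.16 and Tal1 at -0.12, all with both KO pools below both WT pools. Cdh5 was at -0.0080. Adgrf5 and Adgrl4 overlapped on this scale, with lower relative levels in the second pool of each genotype.

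**Figure D4:**
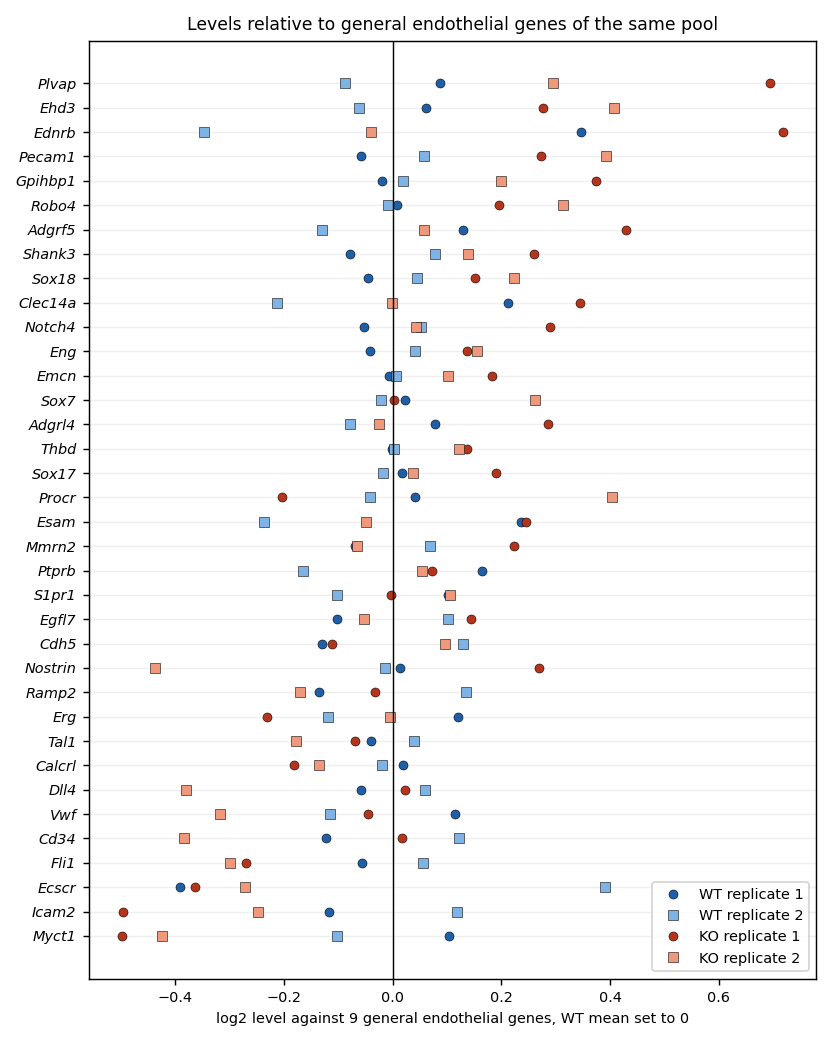
Log2 level of each endothelial gene relative to 9 general endothelial genes of the same pool, shifted so that the WT mean is 0; blue symbols are WT and red symbols KO pools. Plvap, Ehd3 and Pecam1 lie to the right and Myct1, Icam2 and Fli1 to the left in both KO pools.

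Another 50 genes of vascular or lymphatic endothelium outside the list, some of which other cells also make, were examined. Of the 50, 46 were tested. Of these, 30 had a higher and 16 a lower mean in KO mice, the median log2 difference was 0.11, and it was 5.8e-05 without WT replicate 1. Both KO pools lay above both WT pools for 14 of the 46, where 19.7% of all genes did, and below for 6, where 18.1% did. At an unadjusted p under 0.05, 4 were higher (3.29% of all genes) and 0 lower (3.03%), and none passed after adjustment. Flt1, the VEGF receptor that acts as a decoy, was at 5.59 and 5.42 FPKM in WT and 7.33 and 8.71 FPKM in KO mice (log2 difference 0.50, unadjusted p = 0.0148, limma). Nos3, the endothelial nitric oxide synthase, was at 1.88 and 2.63 FPKM in WT and 3.26 and 4.13 FPKM in KO mice (0.61, unadjusted p = 0.0341, limma). The others were Exoc3l2, an exocyst-related protein, and Klf4, a flow-responsive factor that tubular cells also express, at log2 differences of 0.51 and 0.31.

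The most abundant of the 50 were Igfbp3, Jup and Ephb4, at 37.5 to 50.99, 37.7 to 48.7 and 19.4 to 21.5 FPKM over the 4 pools, with overlap for Igfbp3 and Ephb4. Aplnr, which encodes the ELA receptor APJ and was picked out after its values were seen, was at 1.48 and 4.90 FPKM in WT and 1.23 and 0.616 FPKM in KO mice, both KO pools below both WT pools (log2 difference -1.24, unadjusted p = 0.0755, limma). WT replicate 2, where the leukocyte markers were also highest, carried most of the WT level.

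Genes of activated endothelium, many of which other injured or inflamed cells also make, leaned the other way. Of 12, 9 were tested, with a median log2 difference of -0.27. Vcam1 was at 14.6 and 31.1 FPKM in WT and 10.5 and 2.59 FPKM in KO mice, and Cxcl10 at 9.64 and 19.5 FPKM in WT and 4.11 and 0.957 FPKM in KO mice (log2 differences -1.91 and -2.46, unadjusted p = 0.0459 and 0.0144, limma). Lrg1, Cx3cl1 and Icam1, which have the highest levels here, overlapped between the genotypes. The selectins Sele and Selp were at or below 0.3595 FPKM in every pool, and Ackr1, of venules, was at 0.

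Markers of other cells were read beside these values. Mural and mesangial markers, which sit on the same vessels, had a summed level of 154.3 and 211.3 FPKM in WT and 206.3 and 260.7 FPKM in KO mice, lowest and highest in the same pools as the endothelial genes, with a median log2 difference of 0.069 over 14 tested, which became -0.078 without WT replicate 1. The most abundant, Acta2 of smooth muscle, was at 43.0 and 98.4 FPKM in WT and 60.6 and 124.9 FPKM in KO mice, a large part of the sum. The mean log2 level, in which each gene weighs the same, was 2.57 and 2.79 in WT and 2.69 and 2.82 in KO mice. Ren1 did not share this order, with its lowest level in WT replicate 2 and its highest in KO replicate 1. Ren1 and Pdgfrb, next in level, had log2 differences of 0.69 and 0.27, with unadjusted p of 0.0797 and 0.341 (limma). Podocyte markers summed to 209.7 and 196.1 FPKM in WT and 196 and 212.5 FPKM in KO mice, with a median of 0.011 over 12. The 3 highest were Ctsl, Podxl and Enpep, with means of 93.6, 36.7 and 29.3 FPKM over the 4 pools. The sum is mostly that of these 3 genes and is not a measure of podocytes alone. Platelet and megakaryocyte markers summed to 10.4 and 17.2 FPKM in WT and 9.28 and 17.9 FPKM in KO mice, mostly from Pf4, which macrophages also make, while 7 of the 10 were too low to test, and Itga2b and Ppbp were below 2 FPKM. The part of these cells in the endothelial values was not tested.

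Leukocyte markers, with Tyrobp, Fcer1g and Cd68 in the lead, had a median log2 difference of -0.48 over 12 tested genes, which became 0.077 without WT replicate 2. Proximal tubule markers had a median of -0.26 over 10, with Kap, Slc34a1 and Miox at the highest levels, and Slc5a2 and Lrp2 were lower at an unadjusted p of 0.0276 and 0.0390 (limma; log2 differences -0.65 and -0.38). The list was not uniform. In 5 of the 10 both KO pools lay below both WT pools (18.1% of all genes tested), and in 2 both lay above (19.7%). The latter were the transporters Slc22a6 and Slc13a3, named after their values were seen (log2 differences 0.73 and 0.45, unadjusted p = 0.105 and 0.0994, limma). Kap, the most abundant, overlapped at 0.26. Markers of the later nephron had a median of 0.0052 over 10. Among 9 tubular injury markers the median was 0.085. Lcn2 and Krt20 were higher in both KO pools (log2 differences 1.21 and 0.73, unadjusted p = 0.00299 and 0.00161, limma), whereas Vcam1, which is on this list too, was lower (-1.91, given above). Spp1, Clu and Havcr1, the most abundant, overlapped, with log2 differences of 0.085, -0.21 and -0.83. None of these passed after adjustment over all genes.

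**Figure D5:**
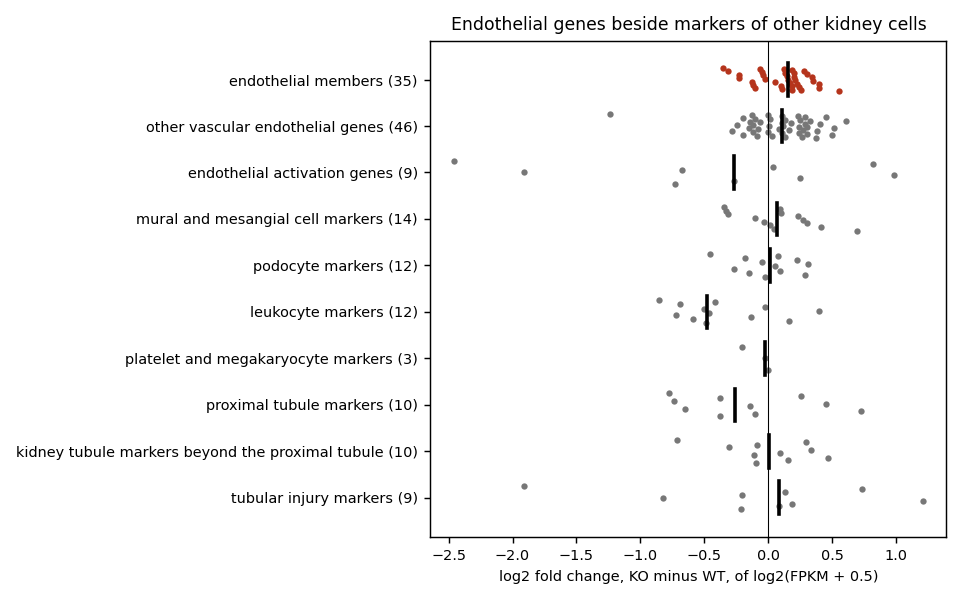
Log2 fold change (KO minus WT) of each tested gene of the endothelial list (red) and of 9 other lists (grey), with the number tested in parentheses and black bars at the medians. The endothelial medians of 0.16 and 0.11 stand beside medians near 0 for podocyte and mural markers and of -0.48 for leukocyte markers.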

How the data were processed

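The authors deposited 1 table of FPKM for 4 kidney libraries, with gene positions and lengths. The submitters' processing notes name HISAT2 2.0.5 and GRCm38.p6; the counting tool, annotation and strand setting are not given in the sources used here. In the table, 35 of the 36 genes had the same position as in GENCODE M21 on GRCm38, and Ehd3 differed. After multiplication by gene length, 100% of nonzero values were whole multiples of 1 read (within 0.01). These recovered reads served for depth and for voom weights.

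The 15414 genes whose mean FPKM reached 0.5 entered a limma model of log2(FPKM + 0.5) values (limma 3.58.1, R 4.3.3) with a mean-variance trend, no covariates and two-sided p-values after Benjamini-Hochberg adjustment. The fold change on this scale understates that of low genes. The study's threshold, an adjusted p under 0.05, was kept. Same-numbered pools deviated from their group means with a correlation of -0.0017 across genes, and the main fit did not pair them. A value over all genes cannot tell whether same-numbered pools were handled together. Fits were tested on simulated data.

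The fit was repeated with a pseudocount of 0.1 or 1, without the filter or with a minimum mean FPKM of 1, after quantile normalization, with voom weights, without the trend, with a replicate block, without each pool, and the list without members that blood cells also make. The members and lists were chosen with earlier results of these data known. From the other lists, the 3 genes of highest mean FPKM and those at an unadjusted p under 0.05 were named, besides genes said to be picked afterwards. Cell type lists were taken from general knowledge, Sele, Selp, Ackr1, Slc22a6 and Slc13a3 being named after their values were seen.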

Additional observations from a re-analysis of the deposited data

How the results depend on the processing

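The number of genes past the threshold, and of endothelial genes among them, was 0 with both pseudocounts, without a filter, with the stricter filter, with quantile normalization, with voom weights, without a trend, with the replicate block and with each pool left out. In the fit as reported, 974 genes and 2 endothelial genes had an unadjusted p under 0.05. The endothelial genes at an unadjusted p under 0.05 were not the same in every fit. The share of all genes under 0.05 was not computed for the alternative fits, so the counts that follow have no background beside them. With the replicate block they numbered 3, namely Plvap, Pecam1 and Ednrb, and Adgrf5 was lost. The block changed no call after adjustment. With quantile normalization and without a trend they numbered 1, Plvap, and Adgrf5 was lost again. Adgrf5 was also lost without each single pool. Which other endothelial genes fell under 0.05 also changed with the pool left out, and each of those fits leaves 1 pool in a group. The median over the endothelial genes ranged from 0.036 to 0.26 with a pool left out and kept its sign. The count of endothelial genes with the KO pools above the WT pools was 7 with all pools. It ranged from 9 to 25 with a pool left out, where fewer pools must be ordered. It was 25 without WT replicate 2 and 22 without KO replicate 1. The share of all genes tested with this order was not computed with a pool left out. The counts from 9 to 25 therefore have no background, and the share of 19.7% applies only to all pools. A fit without 1 pool assumes that the lone pool varies like those of the other genotype.

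Outside the leave-one-out fits, 278 of 279 log2 differences of single genes kept their direction. Quantile normalization moved Nostrin to 0.0036, and the cause was not tested. With a pool left out, 20 of 140 changed direction. The ranges were -0.20 to 0.30 for Cdh5, -0.13 to 0.32 for Egfl7, -0.098 to 0.48 for Sox7, -0.31 to 0.21 for Erg, -0.24 to 0.11 for Tal1, -0.070 to 0.34 for Mmrn2, -0.71 to 0.26 for Ecscr, -0.028 to 0.27 for Ptprb, -0.10 to 0.32 for S1pr1, -0.39 to 0.13 for Cd34, -0.30 to 0.62 for Procr, -0.22 to 0.17 for Nostrin, -0.31 to 0.23 for Ramp2, -0.28 to 0.080 for Calcrl and -0.32 to 0.073 for Dll4. The adjusted p of single members ranged from 0.434 to 1 over the alternatives (limma, Benjamini-Hochberg). With 2 pools a group, the 95% half-widths of the tested members ran from 0.27 to 0.95 before adjustment over all genes. These are not limits of detection for the adjusted calls. The intervals of Plvap at 0.55 and of Apela at -2.62 excluded 0, and neither gene was called after adjustment.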
